A study of Mus musculus with 6 samples.

Results

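The genes described here build and control the mitotic spindle and the kinetochore, the protein plate on each centromere that holds the spindle microtubules. They are 50 genes picked by symbol from a list of genes of mitotic entry, spindle and kinetochore, out of 25939 genes in the tables, and each symbol matched a single entry. The RNA came from cultured mouse aortic smooth muscle cells, which contract the vessel wall. One group was kept in TMAO for 48 h and gave 3 libraries, and the other was kept in control conditions for 48 h and also gave 3 libraries. TMAO is trimethylamine N-oxide, formed in the liver by oxidation of a product of gut microbes. The sources used here give neither the strain, age and sex of the mice nor the passage, the TMAO dose or the content of the control treatment. Nothing says that the 3 libraries of a group were separate cultures or mice, and the p-values below then reflect only how far these libraries spread, which may be technical.

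At mitosis, cyclin B with the kinase Cdk1 drives the cell into division, and the polo and Aurora kinases mature the spindle poles and correct faulty attachments. The kinetochore grips microtubules through the Ndc80 complex, a rod with Ndc80 and Nuf2 at the microtubule end and Spc24 and Spc25 at the centromere end. Unattached kinetochores recruit Bub1, Bub1b, Bub3 and Mad2l1, which hold back Cdc20 and the anaphase-promoting complex until all chromosomes are attached. Most of these genes are transcribed late in the cell cycle, so in a growing culture their RNA levels follow the number of dividing cells. In the artery wall smooth muscle cells are mostly quiescent, and they divide after injury or once placed in culture.

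Many promoters of such genes share a pair of elements. The cell cycle genes homology region (CHR), read here as TTTGAA or TTTAAA, is bound by the MuvB core of the DREAM and FOXM1 complexes, and the CCAAT box is bound by NF-Y. Promoter windows of 250 bases before to 50 bases after the transcript start came from RefSeq (GRCm38.p6) and covered 42 of the 50 genes. The others are Aurkb, Ccna2, Cdc25c, Foxm1, Incenp, Kif20a, Spc24 and Tpx2. Searched on both strands, the CHR letters stood in the window of 34 of these 42 genes (81.0%) and of 8261 of 27025 genes of the whole table (30.6%). CCAAT stood in 32 of 42 (76.2%) and in 11096 of 27025 (41.1%). Both together stood in 28 of 42 (66.7%) and in 3306 of 27025 (12.2%). An E2F core, read as TTGGCGC, as TTCCCGC, as TTGCCGC or else as TTCGCGC, stood in 8 of 42 (19.0%) and in 2936 of 27025 (10.9%). The letters CHR, CCAAT and E2F did not overlap each other in the windows printed here. These are matches of letters and not measured binding.

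The windows of the 4 genes with the smallest p in the comparison of TMAO with Control are shown because the shared elements were present in some of them and absent from others. Sequences run 5′ to 3′ on the strand of the gene, and capitals mark CHR, CCAAT and E2F letters on either strand. The Spc25 window (chr2:69206164-69206463, minus strand) held CCAAT starting 55 and 23 bases before the transcript start and the CHR letters from base 25 of the transcript on. The Hmmr window (chr11:40733388-40733687, minus strand) held CCAAT on the opposite strand 5 times, an E2F core and the CHR letters. The windows of Nuf2 (chr1:169531415-169531714, minus strand) and Nusap1 (chr2:119618048-119618347, plus strand) held none of these letters.
Spc25: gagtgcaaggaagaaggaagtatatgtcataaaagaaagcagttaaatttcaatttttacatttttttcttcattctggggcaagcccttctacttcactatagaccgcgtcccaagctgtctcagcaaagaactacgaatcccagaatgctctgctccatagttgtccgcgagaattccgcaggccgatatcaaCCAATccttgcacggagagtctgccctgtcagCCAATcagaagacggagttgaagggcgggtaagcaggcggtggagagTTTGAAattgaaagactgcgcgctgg
Hmmr: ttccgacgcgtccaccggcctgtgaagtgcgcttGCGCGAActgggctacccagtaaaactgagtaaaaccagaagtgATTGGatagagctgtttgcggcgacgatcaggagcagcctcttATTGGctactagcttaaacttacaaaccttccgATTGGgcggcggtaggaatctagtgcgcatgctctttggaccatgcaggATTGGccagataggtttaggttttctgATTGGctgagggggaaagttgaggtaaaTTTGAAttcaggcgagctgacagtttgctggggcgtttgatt
Nuf2: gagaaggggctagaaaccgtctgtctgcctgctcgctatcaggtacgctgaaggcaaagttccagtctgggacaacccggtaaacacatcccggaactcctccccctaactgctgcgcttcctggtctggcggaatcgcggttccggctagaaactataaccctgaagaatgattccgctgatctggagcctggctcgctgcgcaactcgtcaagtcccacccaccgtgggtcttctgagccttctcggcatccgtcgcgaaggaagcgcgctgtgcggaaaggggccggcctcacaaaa
Nusap1: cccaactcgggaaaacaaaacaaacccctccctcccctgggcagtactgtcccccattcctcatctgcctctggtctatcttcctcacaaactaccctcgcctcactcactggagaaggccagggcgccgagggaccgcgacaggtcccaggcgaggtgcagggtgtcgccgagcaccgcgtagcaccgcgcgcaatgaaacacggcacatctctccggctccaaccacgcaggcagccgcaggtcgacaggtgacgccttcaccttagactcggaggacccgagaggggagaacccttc

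FPKM divides the fragments of a gene by its exon length and by the size of the library, which lets levels of different genes be set side by side. The totals implied by the values were 14991253 to 16806728 reads per library. The 11 listed smooth muscle markers summed to 706 to 731 FPKM in TMAO and 724 to 734 FPKM in Control, most of it Acta2, smooth muscle actin. Acta2 averaged 483 FPKM in TMAO and 487 FPKM in Control, Tpm2 115.2 and 114.8 FPKM, and Myl9 94.7 and 99.1 FPKM. In contrast, 4 of the 11 averaged under 1 FPKM. These were Myh11, smooth muscle myosin (0.0915 FPKM in TMAO and 0.0978 FPKM in Control), the contractile gene Cnn1 (0.618 and 0.702 FPKM), Tagln (0.766 and 0.852 FPKM) and Myocd (0.478 and 0.629 FPKM). The 6 listed endothelial markers summed to 0.581 to 0.738 FPKM in TMAO and 0.532 to 0.589 FPKM in Control. The 9 macrophage and leukocyte markers summed to 84.3 to 92.6 FPKM in TMAO and 83.6 to 105 FPKM in Control, most of it Lyz2. Cd14 averaged 5.14 FPKM in TMAO and 5.40 FPKM in Control, C1qb 4.98 and 4.165, Cd68 4.28 and 4.17, and C1qa 2.78 and 2.58. Another 4 of the 9 averaged under 1 FPKM, among them the leukocyte gene Ptprc at 0.0401 FPKM in TMAO and 0.0399 FPKM in Control. The 8 fibroblast markers summed to 449 to 482 FPKM in TMAO and 448 to 490 FPKM in Control. Most of that sum was Ly6a, with means of 410 FPKM in TMAO and 414.6 FPKM in Control. Pdgfra averaged 23.8 FPKM in TMAO and 26.5 FPKM in Control, Dcn 21.1 and 20.3, Dpt 7.29 and 6.94, and Lum 3.72 and 4.40. Of the 8, 2 averaged under 1 FPKM. The 8 mesothelial and epithelial ones summed to 7.61 to 8.38 FPKM in TMAO and 7.78 to 9.37 FPKM in Control. The 3 skeletal and cardiac muscle ones summed to 0.591 to 0.595 FPKM in TMAO and 0.621 to 0.725 FPKM in Control. Actn2 was at 0 in 1 TMAO library and in 3 Control libraries, Cdh1 in 3 TMAO and 2 Control libraries, Epcam in 2 TMAO and 2 Control libraries, and Cdh5 and Itgam in 1 Control library each. The markers Tie1, Cldn5, Myh6, Myh7, Ckm and Actc1 matched no symbol and were not used here. The nuclear RNA Malat1 stood at 218, 153 and 183 FPKM in TMAO and 75, 113 and 84.4 FPKM in Control (limma adjusted p = 0.196). The part of these levels in the results on mitotic genes was not tested.

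Most mitotic genes were slightly lower in TMAO cells and 1 passed the test. Spc25, a kinetochore subunit, fell by 20.6%. Its partner Nuf2 and the spindle proteins Nusap1 and Hmmr were lower by 17.0% to 19.7% without passing the threshold over all genes. At the other end, the transcription factor Foxm1, the kinase Aurkb and the kinetochore scaffold Knl1 had means within 1.18% of Control. The largest rise in means was 19.6%, for Espl1, the least abundant of the 50 genes (limma adjusted p = 0.579). In bulk RNA, fewer dividing cells and less RNA per dividing cell cannot be told apart.

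The comparison used limma, a linear model with variances shared across genes, on log2(FPKM + 1), with p-values adjusted over 11062 tested genes by the Benjamini-Hochberg method and a threshold of 0.05. A gene was tested if it reached 1 FPKM in at least 3 of 6 libraries. All 50 members were tested, and Espl1 was tested only because its 3 TMAO values exceeded 1 FPKM. Of the 50, 0 rose and 1 fell. Over all tested genes 20 passed (0.181%), of which 8 rose (0.0723%) and 12 fell (0.108%), or 7 and 18 after quantile normalization. At an unadjusted p of 0.05, 10 members were lower and 0 higher, whereas 4.48% of all tested genes were lower and 8.61% higher. All 3 TMAO values lay below all Control values for 17 members and above them for 1, against 6.23% and 12.4% of all tested genes. The log2 fold change was below 0 in 42 of 50 members, against 40% of all tested genes. The median log2 fold change of the members was -0.07, with single members between -0.32 and 0.13, and that of all tested genes was 0.02. With voom, a count-based fit in limma on the recovered reads, 4 members fell (Spc25, Nuf2, Nusap1 and Hmmr) and 0 rose. Over the 10884 genes tested with voom, 69 fell (0.634%) and 41 rose (0.377%).

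**Figure D1:**
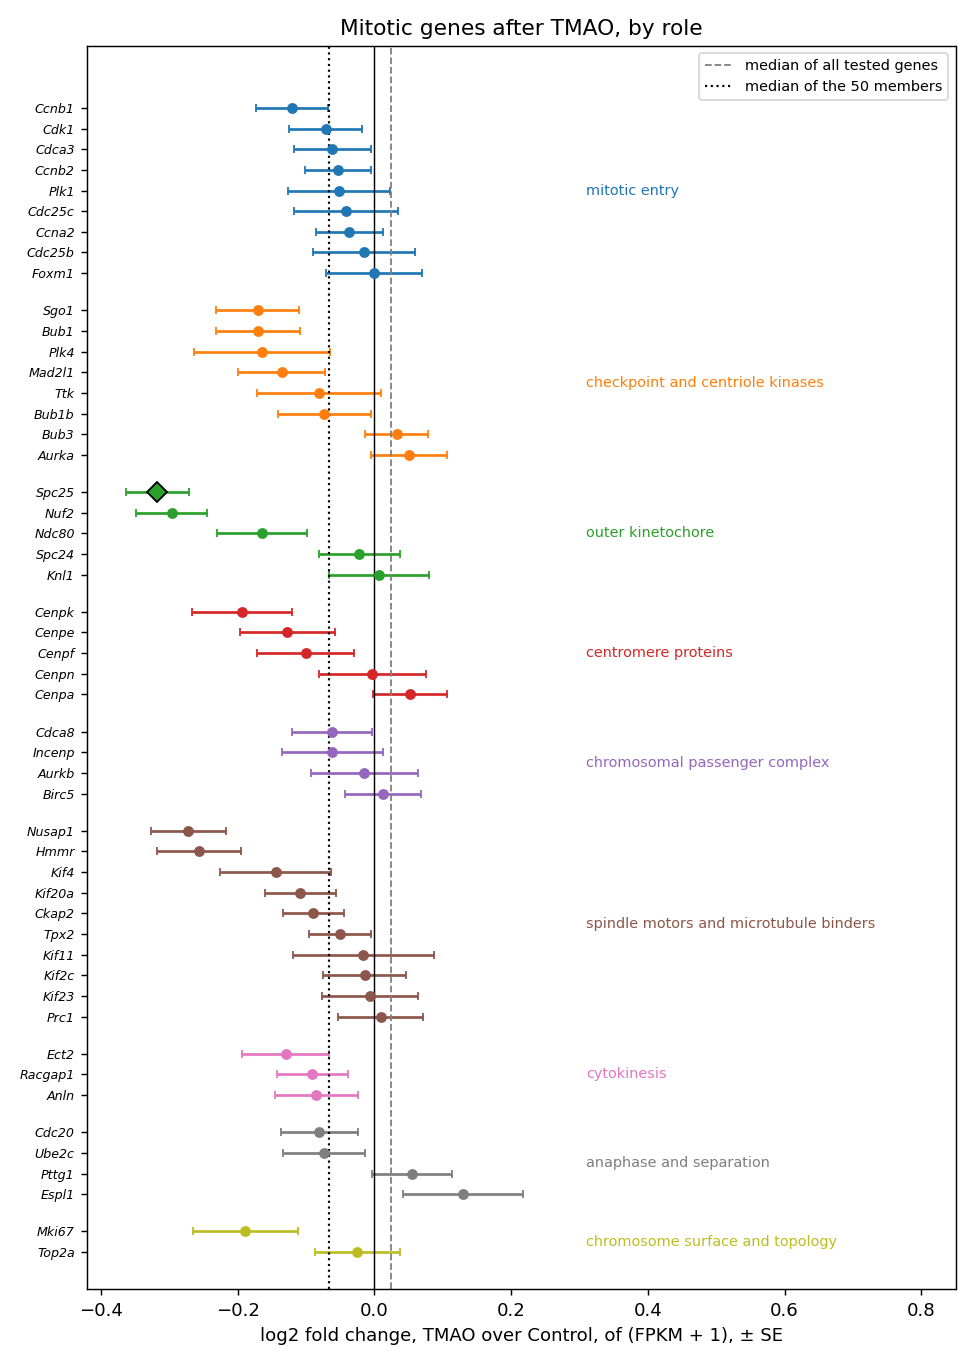
Log2 fold change of (FPKM + 1), TMAO over Control, for the 50 genes by role, with standard errors; the black-edged diamond marks the gene with an adjusted p under 0.05, Spc25. Most points lie left of 0, with a median of -0.07 (dotted line) against 0.02 for all tested genes (dashed line).

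The outer kinetochore showed both the largest and some of the smallest differences. Spc25 (ENSMUSG00000005233, chr2:69193895-69206194 of mm10, minus strand), which anchors the Ndc80 complex to the centromere side, had 19.4, 19.9 and 19.9 FPKM in TMAO 1 to 3, against 24.8, 24.7 and 24.9 FPKM in Control 1 to 3. The groups did not overlap, and values within a group differed far less than the groups did. These values rest on 950 to 1021 reads per TMAO library and 1187 to 1336 reads per Control library. The means were 19.7 ± 0.300 FPKM in TMAO and 24.8 ± 0.110 FPKM in Control (SD, n = 3 each). Sampling of reads at these counts alone gives on average a wider spread than these SDs. Their small size is therefore not a measure of repeatability. On the log2 scale Spc25 fell by 0.32 ± 0.046 (SE), with a limma adjusted p = 0.0249. The call was kept without TMAO 2 (limma adjusted p = 0.0399). It was lost in 7 of 15 alternatives, among them the fits without TMAO 1 (0.0883), TMAO 3 (0.0962), Control 1 (0.0684), Control 2 (0.0649) or Control 3 (0.0838), with a log2 fold change of -0.31 to -0.32 in these fits, and the fit with no filter on low genes (limma adjusted p = 0.178). Over the 15 alternatives the limma adjusted p ran from 0.00486 to 0.178.

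Nuf2 (ENSMUSG00000026683, chr1:169497934-169531464, minus strand), a microtubule-end subunit of the same complex, had 13.0, 12.7 and 13.6 FPKM in TMAO, against 16.2, 16.5 and 16.4 FPKM in Control. All TMAO values lay below all Control values, and limma gave -0.30 ± 0.052 as log2 fold change (adjusted p = 0.0624). It passed with median-ratio size factors (limma adjusted p = 0.0419), with quantile normalization (0.0491), with a mean of at least 5 FPKM as filter (0.0379) and with voom (0.00486). Ndc80 (ENSMUSG00000024056, chr17:71496100-71526857, minus strand), its partner in the microtubule-binding head, had 7.40, 6.498 and 6.70 FPKM in TMAO and 7.83, 7.57 and 8.04 FPKM in Control. Here too the groups did not overlap, though TMAO 1 came close to Control 2 (log2 fold change -0.16 ± 0.066, limma adjusted p = 0.325). Spc24, the partner of Spc25, had 7.01, 6.90 and 7.18 FPKM in TMAO and 6.96, 7.10 and 7.40 FPKM in Control. Its groups overlapped (log2 fold change -0.02 ± 0.060, limma adjusted p = 0.915). Knl1, the scaffold on which Bub1 and Bub3 assemble, had 3.90, 3.70 and 3.72 FPKM in TMAO and 4.02, 3.77 and 3.48 FPKM in Control, which put the log2 fold change at 0.01 ± 0.073 (limma adjusted p = 0.978), and the sign changed with scaling, to -0.02 with median-ratio size factors and -0.03 with quantile normalization.

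Ratios among the 4 subunits of the Ndc80 complex are given as a description, since they were chosen after the values were seen and 3 against 3 libraries cannot pass a test. The ratio of Spc25 to Spc24 was 2.77, 2.89 and 2.77 in TMAO and 3.57, 3.48 and 3.37 in Control. That of Nuf2 to Spc24 was 1.85, 1.85 and 1.90 in TMAO and 2.32, 2.33 and 2.21 in Control. Both ratios were lower in every TMAO library than in any Control library, by 19.2% and 18.4% in the means. The ratio of Spc25 to Nuf2 overlapped between groups, at 1.49, 1.56 and 1.46 in TMAO and 1.54, 1.5 and 1.52 in Control. Two-sided exact permutation tests of the log2 ratios gave p = 0.1 for the ratios to Spc24 and p = 0.6 for Spc25 over Nuf2. The smallest p that 3 against 3 libraries allow in this permutation test is 0.1. Any ratio without overlap between groups gives it, so it adds nothing to the values above. Of the 6 ratios among the subunits, 4 did not overlap between groups, whereas those of Spc25 to Nuf2 and of Nuf2 to Ndc80 did (exact permutation p = 0.6 and 0.2). The 4 are not separate observations, since they share genes and include every ratio to Spc24. The share of ratios without overlap was not taken over other pairs of genes.

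**Figure D2:**
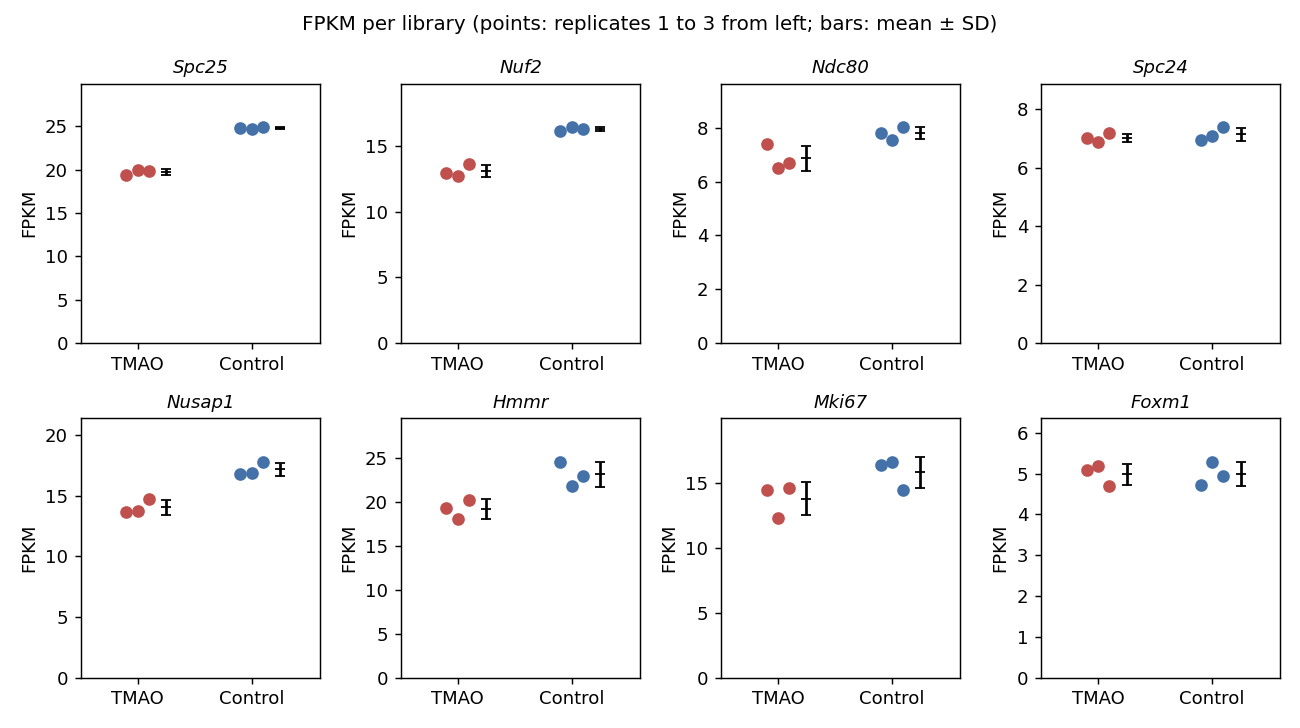
FPKM in each library for 8 of the genes, with TMAO left of Control, points in order of replicate number and bars giving mean ± SD (n = 3). Spc25, Nuf2, Ndc80, Nusap1 and Hmmr have all TMAO points below all Control points, whereas Spc24, Mki67 and Foxm1 overlap.

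Among centromere proteins 0 of 5 passed, 3 had all TMAO values below Control, and the median log2 fold change was -0.10. Over all tested genes 0.181% passed, 6.23% had all TMAO values below Control and 40% had a log2 fold change below 0. The same shares apply beside the counts of the other roles, whose few genes make such counts imprecise. Cenpk, a subunit of the constitutive centromere-associated network, had 3.14, 3.15 and 3.16 FPKM in TMAO, against 3.79, 3.46 and 3.99 FPKM in Control (log2 fold change -0.19 ± 0.073, limma adjusted p = 0.303). The 3 TMAO values were below every Control value. They were nearly equal, closer together than sampling of 248 to 271 reads gives on average. Cenpe, the kinesin that carries chromosomes to the spindle equator, had 7.04, 6.30 and 7.30 FPKM in TMAO and 7.43, 7.97 and 7.39 FPKM in Control (log2 fold change -0.13 ± 0.069, limma adjusted p = 0.470). Its groups did not overlap, but TMAO 3 lay just under Control 3. Cenpa, the histone variant that marks the centromere, went the other way, with 12.1, 12.6 and 12.2 FPKM in TMAO and 11.7, 12.3 and 11.6 FPKM in Control (log2 fold change 0.05 ± 0.054, limma adjusted p = 0.742), and the groups overlapped. Cenpf had a log2 fold change of -0.10. For Cenpn it was -0.0029, although its mean FPKM was 0.103% higher in TMAO.

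Of the 8 genes for checkpoint and centriole kinases and their partners 6 were below 0 and 0 passed, with a median of -0.11 on the log2 fold change scale. Sgo1, the guardian of centromeric cohesion, had 6.51, 6.53 and 6.58 FPKM in TMAO, against 7.29, 7.84 and 7.36 FPKM in Control (log2 fold change -0.17 ± 0.060, limma adjusted p = 0.270). The checkpoint kinase gene Bub1 had 8.31, 8.37 and 8.38 FPKM in TMAO, against 9.64, 10.03 and 8.94 FPKM in Control (log2 fold change -0.17 ± 0.061, limma adjusted p = 0.277). For both genes the TMAO values were below all Control values, and closer together than sampling of their reads gives on average. Mad2l1, whose protein inhibits Cdc20, was likewise below Control in every library (log2 fold change -0.14, limma adjusted p = 0.390). Bub3 and Aurka, the spindle pole kinase, had log2 fold changes of 0.03 and 0.05, and Plk4, the kinase of centriole duplication, one of -0.16 ± 0.099. Plk4 had 2.96, 2.23 and 3.08 FPKM in TMAO and 3.11, 3.48 and 2.99 FPKM in Control, so TMAO 3 lay above Control 3 and TMAO 2 well below the rest.

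The 10 spindle motors and microtubule binders had a median log2 fold change of -0.07, with 0 past the threshold, 9 below 0 and 5 with all TMAO values below Control. Over all tested genes 40% were below 0 and 6.23% had all TMAO values below Control. Nusap1 (ENSMUSG00000027306, chr2:119618298-119651244, plus strand), which bundles microtubules around chromosomes, had 13.7, 13.8 and 14.8 FPKM in TMAO, against 16.8, 16.9 and 17.8 FPKM in Control (log2 fold change -0.27 ± 0.055, limma adjusted p = 0.0871). Hmmr (ENSMUSG00000020330, chr11:40701395-40733422, minus strand), a spindle pole protein that also binds hyaluronan, had 19.3, 18.1 and 20.3 FPKM in TMAO, against 24.6, 21.9 and 23.0 FPKM in Control (log2 fold change -0.26 ± 0.061, limma adjusted p = 0.136). Neither gene overlapped between groups. Both passed with voom (limma adjusted p = 0.0206 and 0.0252), and Nusap1 also with a mean of at least 5 FPKM as filter (0.0485). The motors differed less, from -0.14 for Kif4, the chromosome-arm kinesin, and -0.11 for Kif20a, a kinesin of the central spindle, to -0.01 for Kif23, the kinesin that pairs with Racgap1, and Kif11, which pushes the spindle poles apart, had -0.02 ± 0.103. Antisense exons of Cdc23 overlap 29.3% of the Kif20a exon bases, and those of Pdzd11 overlap 15.1% of the Kif4 exon bases. The library kit was stranded, but whether the counting used strand is not given in the sources used here, so these levels are uncertain. The same holds for Ube2c, of whose exon bases Tnnc2 covers 22.8%, and for Ccna2, with 12.5% covered by Exosc9.

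Of the 9 genes of mitotic entry 0 passed and 9 were below 0, all by little, with log2 fold changes from -0.12 to -0.0006. Cyclin B1 (Ccnb1) had 31.2, 34.2 and 34.7 FPKM in TMAO, against 37.2, 35.3 and 36.5 FPKM in Control (log2 fold change -0.12 ± 0.053, limma adjusted p = 0.367), without overlap. A near-identical copy, Ccnb1-ps, with which Ccnb1 can share reads, stood at 4.33 FPKM in TMAO and 4.61 FPKM in Control. How many reads were shared was not measured, so the level of Ccnb1 is uncertain. Cdk1, the kinase of cyclin B1, had 24.98, 27.5 and 26.8 FPKM in TMAO and 26.9, 27.4 and 29.1 FPKM in Control (log2 fold change -0.07 ± 0.054, limma adjusted p = 0.622). Plk1, the polo kinase, had 12.2, 11.9 and 11.4 FPKM in TMAO and 10.9, 12.8 and 13.3 FPKM in Control (log2 fold change -0.05 ± 0.074, limma adjusted p = 0.817). Foxm1, the transcription factor of the late cell cycle programme, had 5.08, 5.19 and 4.70 FPKM in TMAO and 4.72, 5.30 and 4.95 FPKM in Control (log2 fold change -0.0006 ± 0.071, limma adjusted p = 0.999). Cdk1, Plk1 and Foxm1 overlapped between groups. Cyclin B2 (Ccnb2), the most abundant of the 50 genes at a mean of 61.4 FPKM, had a log2 fold change of -0.05.

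The chromosomal passenger complex, which corrects wrong attachments at the centromere, had 0 of 4 genes past the threshold, with a median of -0.04. Its kinase gene Aurkb had 6.27, 6.92 and 5.86 FPKM in TMAO and 5.90, 6.44 and 6.93 FPKM in Control (log2 fold change -0.01 ± 0.078, limma adjusted p = 0.960). The scaffold gene Incenp had 7.72, 6.84 and 7.06 FPKM in TMAO and 7.15, 8.31 and 7.24 FPKM in Control (log2 fold change -0.06 ± 0.074). Cdca8, which codes for borealin, had 8.31, 7.96 and 8.57 FPKM in TMAO and 8.44, 8.75 and 8.87 FPKM in Control (log2 fold change -0.06 ± 0.059). All 3 overlapped between groups, as did survivin (Birc5), with a log2 fold change of 0.01 whose sign depended on the alternative.

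The 3 cytokinesis genes were each below 0, none past the threshold. Ect2, the exchange factor that activates RhoA at the division plane, had 10.4, 10.9 and 9.48 FPKM in TMAO, against 10.9, 11.5 and 11.4 FPKM in Control (log2 fold change -0.13 ± 0.063, limma adjusted p = 0.419). Racgap1, its activator on the central spindle, had 12.2, 11.9 and 12.2 FPKM in TMAO, against 13.1, 13.1 and 12.7 FPKM in Control (log2 fold change -0.09 ± 0.052, limma adjusted p = 0.498). Both were lower in every TMAO library than in any Control library. Anln, which codes for anillin of the contractile ring, overlapped between groups (log2 fold change -0.08).

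Genes of anaphase and chromosome separation went both ways, 2 of 4 below 0 and 0 past the threshold. Cdc20, the activator of the anaphase-promoting complex, had 51.4, 46.1 and 44.1 FPKM in TMAO and 49.8, 50.8 and 49.1 FPKM in Control, with TMAO 1 above every Control value (log2 fold change -0.08 ± 0.057, limma adjusted p = 0.597). Espl1, which codes for separase and is the least abundant member, had 1.09, 1.03 and 1.28 FPKM in TMAO and 0.982, 0.948 and 0.911 FPKM in Control. It was the single member with all TMAO values above Control (log2 fold change 0.13 ± 0.088, limma adjusted p = 0.579). Its mean was 19.6% higher in TMAO, and its log2 fold change was 0.23 with a pseudocount of 0.1 and 0.24 with voom. Pttg1, the securin that inhibits separase, had a log2 fold change of 0.05, and Ube2c, the ubiquitin-conjugating enzyme of the complex, -0.07.

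The proliferation marker Mki67, which coats mitotic chromosomes, had 14.4, 12.3 and 14.6 FPKM in TMAO and 16.3, 16.6 and 14.4 FPKM in Control (log2 fold change -0.19 ± 0.077, limma adjusted p = 0.333). Control 3 lay inside the range of the TMAO libraries. Top2a, the topoisomerase that untangles sister chromatids, had 19.5, 17.0 and 19.0 FPKM in TMAO and 19.0, 19.5 and 17.9 FPKM in Control, with overlapping groups (log2 fold change -0.02 ± 0.063, limma adjusted p = 0.908).

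Taken library by library, the 50 genes summed to 729, 732 and 730 FPKM in TMAO 1 to 3, against 769, 778 and 782 FPKM in Control 1 to 3, means of 730 ± 1.71 FPKM in TMAO and 776 ± 6.65 FPKM in Control (SD, n = 3 each), 5.87% lower in TMAO. The sum is weighted to the abundant genes and gets no test, since the members were chosen. TMAO 2 held the lowest of the 6 values for 18 members, TMAO 1 for 13 and TMAO 3 for 8, and the Control libraries held the other lowest values. The highest value lay in Control 2 for 16 members, in Control 3 for 15 and in Control 1 for 9. Ttk, the checkpoint kinase Mps1, had 4.79, 3.65 and 4.73 FPKM in TMAO and 4.81, 4.70 and 4.51 FPKM in Control, so TMAO 2 alone stood apart there. The 18 members lowest in TMAO 2 had a median exon length of 6417 bases, and the other 32 members one of 4246 bases. These counts and lengths were not taken over all tested genes, so they may belong to the libraries and not to the members. A part of exon length in the differences was not tested. Spc25 and Nusap1 had their lowest value in TMAO 1.

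**Figure D3:**
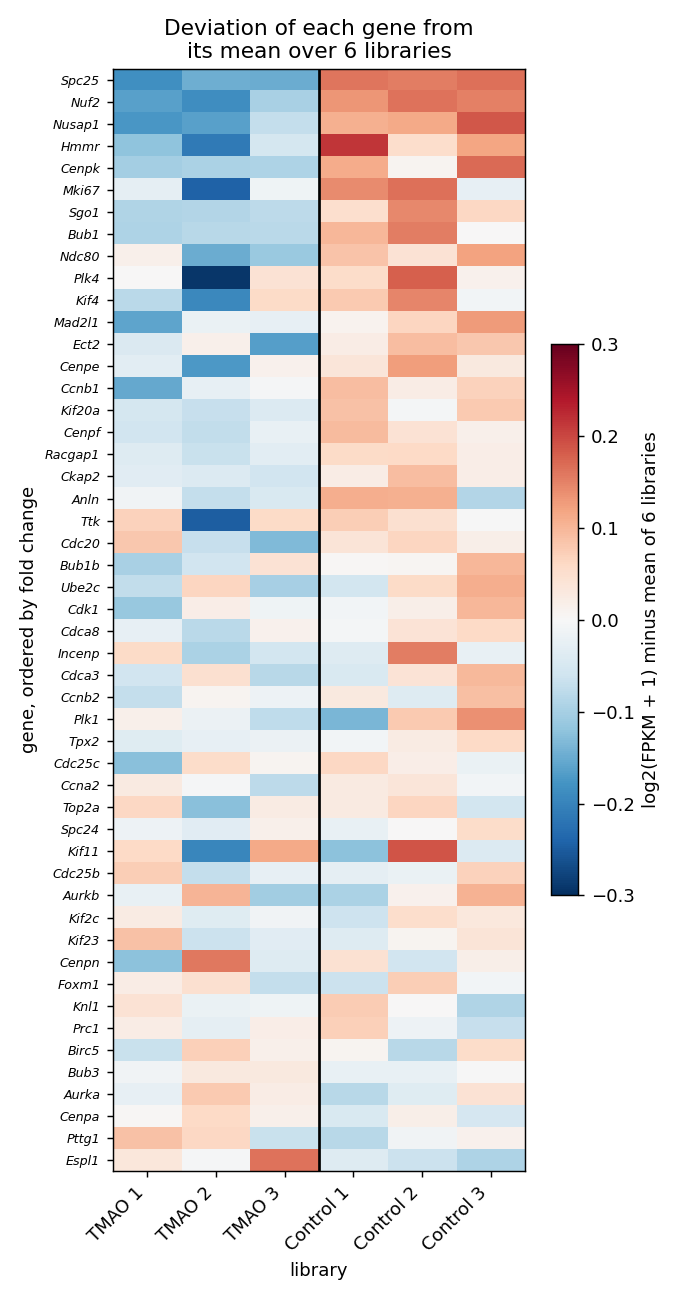
Deviation of each gene from its own mean over the 6 libraries, on the log2(FPKM + 1) scale, with TMAO 1 to 3 left of the line and Control 1 to 3 right of it, and genes ordered by fold change. The top rows, Spc25 and Nuf2, are blue in all TMAO columns and red in all Control columns, and Plk4, Ttk and Mki67 are darkest blue in TMAO 2.

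Other genes of the same pathway, from a list of 100 mitotic genes that are not members, had a median nearer to 0. Of 98 tested, 0 passed in either direction with limma, 12 were lower and 4 higher at an unadjusted p of 0.05, 62 lay under 0, and their median was -0.03 on the log2 fold change scale. With voom 4 of them fell, against 0.634% of all genes tested in that fit. These were Cenpq, a subunit of the constitutive centromere network (limma log2 fold change -0.49 ± 0.086, limma adjusted p = 0.0624), Pbk, a mitotic kinase (-0.29), Shcbp1, a protein of the central spindle (-0.29), and the condensin gene Smc4 (-0.20). In the other direction, Hjurp, the chaperone that loads Cenpa at centromeres, stood at 0.35 on the same scale (limma adjusted p = 0.245). These 5 genes were chosen after their values were seen. Of the DNA replication and G1/S genes 0 of 42 passed with limma or with voom, 2 were lower and 1 higher at an unadjusted p of 0.05, and the median log2 fold change was -0.01. Among 16 CDK inhibitors and p53 targets 0 passed with limma or with voom, 5 were higher and 0 lower at an unadjusted p of 0.05, and the median was 0.10. Over all tested genes, 4.48% were lower and 8.61% higher at an unadjusted limma p of 0.05, 40% lay under 0 and the median was 0.02. Differences between these lists, or from all tested genes, were not tested.

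**Figure D4:**
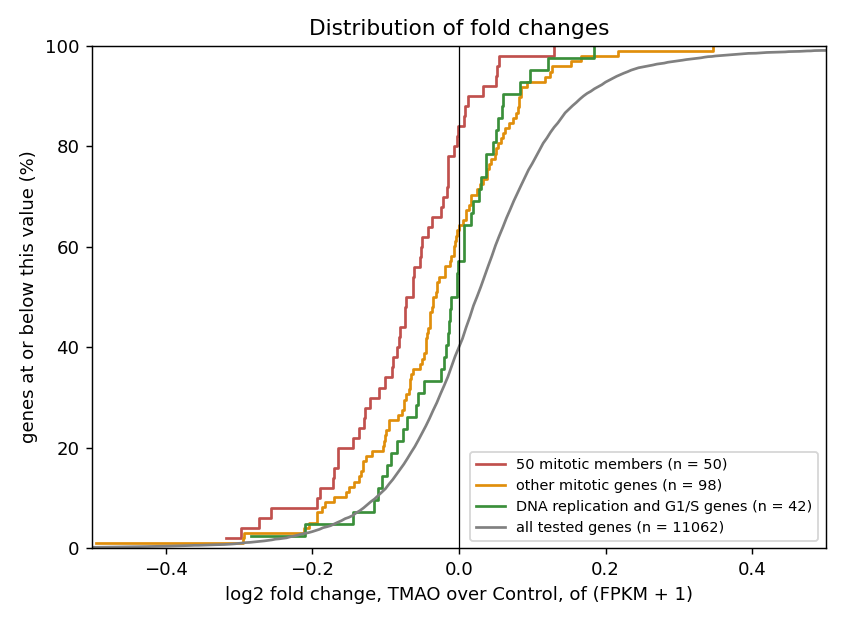
Share of genes at or below each log2 fold change of (FPKM + 1), TMAO over Control, for the 50 mitotic members, 98 other mitotic genes, 42 DNA replication and G1/S genes and 11062 tested genes. Over most of its length the curve of the members lies left of the others, with 84% of members and 40% of all tested genes below 0.

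The promoter letters were set beside the size of the difference, with no test. The 28 members with both CHR and CCAAT letters had a median log2 fold change of -0.07 (range -0.32 to 0.13), and the 14 matched members without the pair had one of -0.15 (range -0.30 to 0.055). Of the 4 genes whose windows are printed above, Spc25 and Hmmr carried the pair and Nuf2 and Nusap1 did not. Outside the 25 members that the selection rule named for values per library, the other 25, Plk4 and Ttk included, had log2 fold changes of -0.16 to 0.05, 20 of them below 0 and 5 with all TMAO values below Control, and the smallest limma adjusted p among them was 0.39. Of all tested genes, 40% were below 0 and 6.23% had all TMAO values below Control.

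On the genome, 9 of the 50 members lie on chromosome 2, among them Bub1b, Knl1 and Nusap1, whose genes start at 118598211, 119047119 and 119618298 of mm10. These 3 genes had log2 fold changes of -0.07, 0.01 and -0.27.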

How the data were processed

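RNA of 6 libraries was measured, 3 TMAO and 3 Control, grouped and numbered by title, from a stranded poly(A) kit per the labels' protocols. The authors deposited a table of FPKM values for each library, and although the Control 1 header reads PKM, its values give whole reads in the same way. Per the submitters' processing notes, the tools were Trimmomatic, HISAT2, Cufflinks and HTSeq and the build was mm10. Tool versions, annotation and strand setting of the counting were not given in the sources used here. With exon lengths of GENCODE release M21 (mm10), the FPKM values of 25490 genes, 98.5% of annotated ones, gave whole reads in all 6 libraries to within 0.01 reads, and these reads were used for voom and for the totals. The number of libraries, 3 a group, limits the precision.

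Groups were compared with limma 3.58.1 (R 4.3.3), with a trended, robust variance on log2(FPKM + 1), two-sided; fold changes on this scale understate those of low genes. Members and lists were chosen with earlier results of these data known. Values per library are given for members past the threshold, the 2 smallest p in each role and a fixed panel, 25 in all. Plk4 and Ttk, also given per library, and other genes named beyond the 25 were chosen after their values were seen. The fit was tested on simulated data, with the mark for recovery set at changes larger than those of any member here. Alternatives were other scalings, filters and pseudocount, a fit without the robust option, the replicate number as a block, voom, and each library left out. Replicate counts were compared by chi-square, and no library repeated another. Python 3.11.15, pandas 2.3.3 and matplotlib 3.10.9 prepared tables and figures.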

Additional observations from a re-analysis of the deposited data

How the results depend on the processing

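All values are TMAO over Control. The single member past the threshold, Spc25, became 2 with median-ratio size factors and 2 with quantile normalization (Spc25 and Nuf2), 3 with a mean of at least 5 FPKM, 4 with voom, 0 with no filter and 0 with the replicate block, and 0 to 1 when each library was left out. Without a filter 8 members had an unadjusted p under 0.05, and with the replicate block 9. Genes past the threshold, 20 in all, became 0 with no filter (1999 at an unadjusted p of 0.05), 50 with a mean of at least 5 FPKM, 110 with voom, and 11 to 56 when each library was left out: 11 without Control 3, 12 without TMAO 1 and 56 without TMAO 2. The median log2 fold change of the members, -0.067, was -0.093 with median-ratio size factors, -0.086 with quantile normalization and -0.085 with voom, where the median of all genes was 0.002, -0.002 and 0.019, and it ranged from -0.082 to -0.054 when each library was left out. Members below 0 numbered 38 (without TMAO 2 or TMAO 3) to 45 (median-ratio size factors) of 50 over the alternatives that tested all members, and 33 of 39 with a mean of at least 5 FPKM. The signs of genes near 0 changed in a few fits: Knl1 was -0.02 with median-ratio size factors and -0.03 with quantile normalization, and -0.04 to 0.05 with a library left out, when Foxm1 ranged from -0.03 to 0.04, Aurkb from -0.07 to 0.03, Top2a from -0.06 to 0.03 and Plk1 from -0.13 to 0.0031. The cause of these shifts was not tested. Libraries with the same replicate number showed no sign of deviating together (correlations of -0.0858, -0.1040 and 0.0555 for numbers 1 to 3). So few libraries cannot exclude that the numbers pair them. With the replicate block the limma adjusted p of Spc25 was 0.0794, and 22 genes passed.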
